A study of Homo sapiens with 2 samples.

Results

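The genes described here encode the BCL2 family, the caspases, the inhibitors of apoptosis and the adaptors of the death receptors, as expressed in A549, an established cell line from a human lung adenocarcinoma. They were taken by name from a list of 33 genes, and 32 were found under exactly that name among 12936 named genes. The missing gene, BCL2L2, which encodes the survival protein BCL-w, was listed only in a locus shared with PABPN1 and a readthrough of both. That locus stood at 86.4 RPKM in wild type cells and 98.0 RPKM after knockdown, and neither value can be assigned to BCL2L2. RPKM values are read numbers corrected for the length of the transcript and the size of the library, so levels of different genes can be compared per length.

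The study sequenced RNA from wild type A549 cells and from A549 cells with knockdown of MYOCD, the gene for myocardin, a coactivator of serum response factor. With 1 library of each kind there was no replicate error and no test, and "higher" or "lower" below compares those 2 libraries. The treatment label lists doxycycline for 72 h on both samples, although the series' design describes the wild type as having no treatment. If only the knockdown cells received it, doxycycline and the loss of MYOCD cannot be told apart. The genotype label says knockdown, but the title is MYOCD-/-, as is written when both alleles are lost. The labels do not name the method of knockdown or say whether the cells were a clone. Both cultures grew in DMEM with 10% serum.

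MYOCD itself had 0.881 and 0.400 RPKM, the knockdown level being 0.455 of the wild type level, and both lay under the level at which differences were counted here. Of 10 markers of a lung epithelial line, 7 were listed, while the alveolar genes NKX2-1, SFTPB and SFTPC were absent from the values used here. KRT8 had 1545 and 1521 RPKM, KRT18 had 1776 and 1683, KRT7 had 1395 and 1456, and CDH1 had 23.8 and 22.5. KRT19 was low at 7.70 and 7.69 RPKM, as were EPCAM at 2.24 and 2.15 and NAPSA at 1.27 and 0.771. Of 10 markers of fibroblasts, endothelial cells and leukocytes, 2 were listed: COL1A1 at 2.76 and 2.41 RPKM and CD14 at 3.13 and 3.30 RPKM. EPCAM and NAPSA were thus lower than both in each library. The depth of the libraries is unknown because no counts were given. In all pairs of values the wild type library comes first.

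Apoptosis is driven by caspases, proteases that are made as inactive precursors. In the mitochondrial route, BH3-only proteins neutralise survival members of the BCL2 family or activate the effectors, which open the outer mitochondrial membrane. Cytochrome c then binds APAF1 to form the apoptosome, which activates caspase-9. In the receptor route, adaptors such as FADD recruit caspase-8 to ligand-bound death receptors, and CFLAR limits its activation. Inhibitors of apoptosis hold caspases and receptor complexes in check, and DIABLO and HTRA2 relieve that block once released from mitochondria.

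APAF1, CASP6, CASP4, RIPK1, BCL2A1, CYCS and CASP8 were higher in the knockdown library and ENDOG was lower, each by at least 1.25-fold. The other 21 measured genes differed by less. Of the 32 listed genes, 29 reached a mean of 1 RPKM over both libraries and were set beside the 12158 genes that met the same limit, with differences taken on the log2(RPKM + 1) scale. At least 2-fold higher were 0 of the 29, against 0.65% of all genes, and at least 2-fold lower were 0, against 0.724%. At least 1.5-fold higher were 0, against 1.65% of all genes, and at least 1.5-fold lower were 0, against 3.2%. With a pseudocount of 0.1 in place of 1, the count at least 1.5-fold higher was 2, BCL2A1 and CASP4.

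A smaller size of 1.25-fold, chosen after the values were seen, gave 7 higher genes (24.1% of the 29) and 1 lower gene (3.45%). Among all genes, 7.99% were higher and 10.6% lower by this size. With a pseudocount of 5 the counts were 1 higher (CYCS) and 0 lower, beside 3.45% and 5.03% of all genes, so the higher share was then no larger than that of all genes. The median log2 difference of the 29 genes was 0.09, beside 0.01 for all genes, and 18 of the 29 (62.1%) lay above that all-gene median. These shares describe the list and are not a test of it. When the libraries were rescaled to the same summed RPKM over all loci, the all-gene median moved to -0.17 and that of the 29 genes to -0.09. The count above the all-gene median was 18 there too, but could hardly change, since such a rescaling moves all genes nearly alike. At 1.25-fold, 2 genes were then higher (BCL2A1 and CASP4) and 3 lower (BCL2L12, XIAP and ENDOG), beside 2.84% and 25.5% of all genes. In RNA from a whole culture, fewer cells with a message and less message per cell cannot be told apart.

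**Figure D1:**
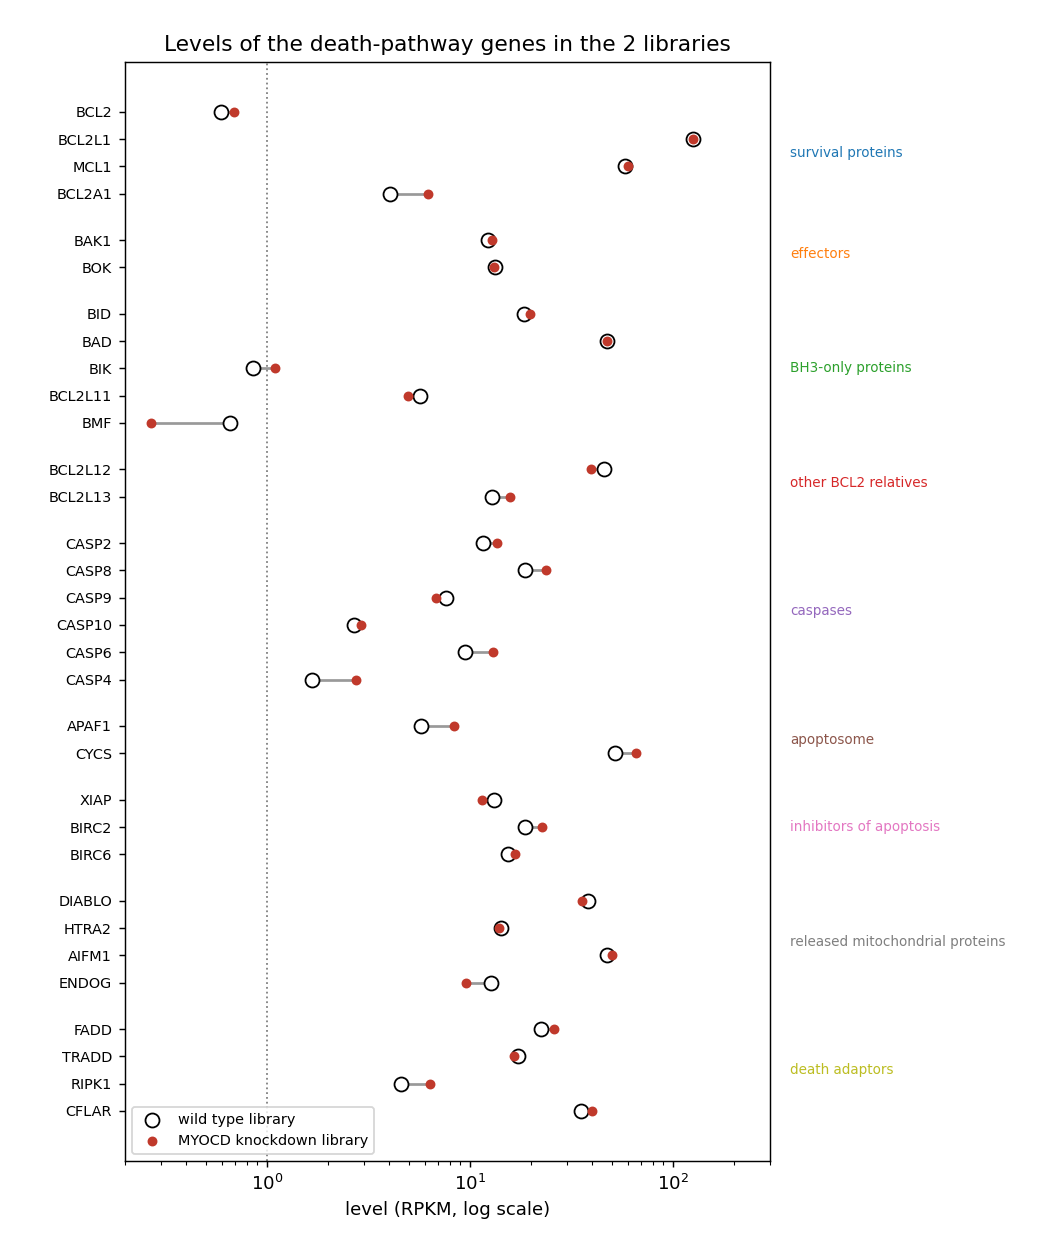
Level of each gene in RPKM on a log axis, grouped by role, with 1 open circle for the wild type library and 1 filled circle for the MYOCD knockdown library. BCL2L1 is the highest at 126 RPKM in both, BCL2 and BMF lie left of the dotted line at 1 RPKM, and most pairs nearly coincide.

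The survival proteins bind and restrain the effectors and BH3-only proteins. BCL2L1, which encodes BCL-xL, had 126.2 and 126.3 RPKM, the highest level among the 32 genes. MCL1, a short-lived survival protein, had 58.2 and 60.3 RPKM, and the ratio of BCL2L1 to MCL1 was 2.17 and 2.09. BCL2, the founding member, was near the floor of the table at 0.594 and 0.687 RPKM. BCL2L1 stood at 212 times the BCL2 level in wild type cells and 184 times after knockdown.

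BCL2A1, a survival protein known as a target of NF-kB, stood at 4.05 RPKM in wild type cells and 6.25 RPKM after knockdown. This was a ratio of 1.55 and a log2 difference of 0.52 on the log2(RPKM + 1) scale, a size reached or passed upward by 2.35% of all genes. It was the highest log2 difference of the 29 genes. Across the 9 alternative settings its log2 difference ran from 0.31 to 0.62.

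The effectors BAK1 and BOK showed almost equal levels. BAK1, which forms pores in the outer mitochondrial membrane, had 12.4 and 12.8 RPKM. BOK, a relative of BAK1 and BAX, had 13.3 and 13.2 RPKM. Their sum was 25.7 and 26.0 RPKM, and BCL2L1 stood at 4.91 and 4.86 times that sum, which leaves out BAX. BAX, the other main effector and not among the 33 genes, was more abundant at 182 and 190 RPKM. BAX alone thus lay above BCL2L1 in both libraries, so the ratio does not hold for all effectors.

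Of the BH3-only genes, none of the 3 with a mean of at least 1 RPKM reached 1.25-fold. BAD, which binds BCL2L1, had 47.2 RPKM in both libraries. BID, which caspase-8 cleaves to link the receptor route to mitochondria, had 18.4 and 19.8 RPKM. BCL2L11, which encodes BIM, was slightly lower at 5.67 and 4.99 RPKM, a log2 difference of -0.15. Of the 2 genes under the limit, BIK had 0.857 and 1.10 RPKM. BMF, a BH3-only protein linked to cell detachment, had 0.658 and 0.271 RPKM, a ratio of 0.411. BMF had the lowest ratio of the 32 genes, but at levels where the table lists a locus only if the higher library reached 0.652 RPKM.

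The other relatives differed in opposite directions by less than 1.25-fold. BCL2L13, a mitochondrial member with a role in removal of mitochondria, had 12.9 and 15.9 RPKM, a log2 difference of 0.28 and the value nearest to 1.25-fold from below. BCL2L12 had 45.8 and 39.5 RPKM, a log2 difference of -0.21. Exons of BCL2L12 overlap those of IRF3 on the opposite strand by up to 385 bases, and IRF3 was also lower, at 52.5 and 43.2 RPKM. Use of strand in the counting (not given in the sources used here) is unknown, so reads from either gene in the overlap cannot be told apart.

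**Figure D2:**
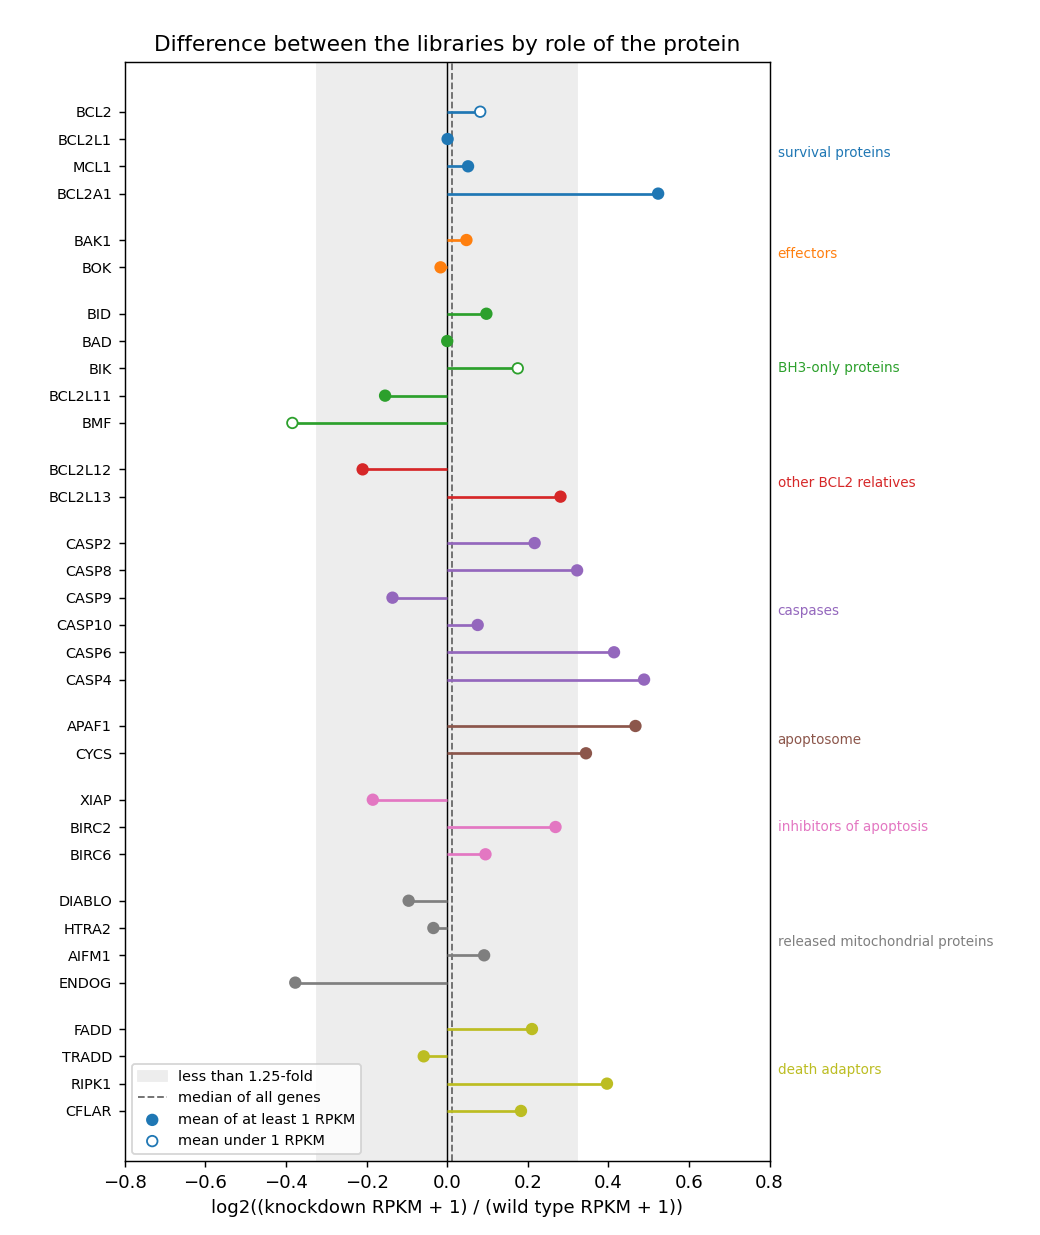
Difference between the libraries for each gene, as log2 of knockdown over wild type with 1 RPKM added to both, coloured by role. The grey band marks less than 1.25-fold and the dashed line the all-gene median of 0.01. BCL2A1, CASP8, CASP6, CASP4, APAF1, CYCS and RIPK1 lie right of the band. Left of it lie ENDOG and BMF, and open circles such as that of BMF mark a mean under 1 RPKM.

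Of the 6 caspases, 3 were at least 1.25-fold higher, 0 were that much lower, and the median log2 difference was 0.27. With equal sums over all loci 1 of them, CASP4, was past that size. CASP6, an executioner caspase that cleaves lamins, had 9.49 and 13.0 RPKM, a log2 difference of 0.41. CASP8, the initiator of the receptor route, had 18.8 and 23.7 RPKM, a log2 difference of 0.32, just past 1.25-fold. It was just short of 1.25-fold when the libraries were rescaled over named genes or by the median ratio of genes. With equal sums over all loci its log2 difference was 0.13. CASP4, an inflammatory caspase that senses bacterial lipopolysaccharide in the cytosol, was low at 1.67 and 2.74 RPKM and had a log2 difference of 0.49. CASP4 lies where more genes pass this size: among 2862 genes with a mean of 1 to 5 RPKM, 10.9% passed 1.25-fold upward and 18.0% downward.

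The other initiators differed less. CASP2, an initiator activated by the PIDDosome, had 11.6 and 13.6 RPKM, a log2 difference of 0.22. CASP10, the relative of CASP8, had 2.70 and 2.90 RPKM. CASP9, the caspase of the apoptosome, was slightly lower, with 7.62 and 6.85 RPKM, a log2 difference of -0.14. The level of CASP9 was 0.406 of that of CASP8 in wild type cells and 0.288 of it after knockdown, and summed caspase levels were 51.8 and 62.8 RPKM.

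Both apoptosome components were at least 1.25-fold higher in the knockdown library, while CASP9, the caspase they activate, was not. With equal sums over all loci neither reached that size, with log2 differences of 0.29 for APAF1 and 0.15 for CYCS. With a pseudocount of 5, APAF1 was also just short of it, at 0.31. APAF1, the scaffold, had 5.75 and 8.34 RPKM, a ratio of 1.45 and a log2 difference of 0.47, reached or passed upward by 3.28% of all genes. The ratio of APAF1 to CASP9 was 0.755 in wild type cells and 1.22 after knockdown. CYCS, which encodes cytochrome c, an electron carrier until its release, had 51.9 and 66.2 RPKM and a log2 difference of 0.34. Of the 7 higher genes, CYCS was the most abundant, and its level was 9.03 times that of APAF1 in wild type cells and 7.94 times after knockdown. APAF1 occupies bases 98645141 to 98735433 of chromosome 12 (plus strand, GENCODE release 29 on GRCh38), with 26 exons in its longest coding transcript. CYCS occupies bases 25120091 to 25125361 of chromosome 7 (minus strand). Exons of APAF1 overlap up to 750 bases of ANKS1B on the opposite strand, which had 1.64 and 2.33 RPKM. With the use of strand unknown, reads from either gene in that overlap cannot be told apart.

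Inhibitors of apoptosis differed in both directions. BIRC2, which encodes cIAP1, a ubiquitin ligase of the TNF receptor complex, had 18.6 and 22.6 RPKM, a log2 difference of 0.27. XIAP, the direct inhibitor of caspases, had 13.2 and 11.5 RPKM, a log2 difference of -0.18. BIRC6, a very large member of the family, had 15.5 and 16.6 RPKM. None of the 3 reached 1.25-fold, and the ratio of BIRC2 to XIAP was 1.41 in wild type cells and 1.97 after knockdown. BIRC3, the neighbour of BIRC2 on chromosome 11 and not among the 33 genes, had 19.0 and 23.2 RPKM.

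Among the proteins that leave mitochondria during cell death, ENDOG had the lowest log2 difference, also among all 29 measured genes. It encodes endonuclease G, a mitochondrial nuclease, and stood at 12.8 RPKM in wild type cells and 9.59 RPKM after knockdown. The log2 difference was -0.38, reached or passed downward by 8.03% of all genes, and ran from -0.56 to -0.28 across the alternative settings. ENDOG exons overlap up to 350 bases of SPOUT1 (listed as C9orf114) on the opposite strand, which had 16.0 and 15.7 RPKM. ENDOG occupies bases 128818474 to 128822677 of chromosome 9 (plus strand). AIFM1, a flavoprotein that also acts in respiratory chain assembly, had 47.3 and 50.4 RPKM. The antagonists of XIAP differed little: DIABLO had 38.1 and 35.6 RPKM and HTRA2 had 14.3 and 14.0 RPKM. Their summed level was 1.65 times that of XIAP and BIRC2 in wild type cells and 1.45 times after knockdown. Exons of HTRA2 overlap up to 360 bases of AUP1 on the opposite strand, which had 82.1 and 98.5 RPKM. Those of DIABLO overlap up to 916 bases of B3GNT4 on the opposite strand, which had 1.17 and 0.684 RPKM. With the use of strand unknown, reads from either gene in these overlaps cannot be told apart.

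Of the 4 death adaptors, 3 had log2 differences above 0, of which CFLAR was at -0.01 with equal sums over all loci. RIPK1, the kinase that directs TNF receptor signals towards survival or death, had 4.61 and 6.38 RPKM, a ratio of 1.38 and a log2 difference of 0.40. FADD, the adaptor of FAS and TRAIL receptors, had 22.4 and 26.1 RPKM, a log2 difference of 0.21. CFLAR, the caspase-8-like protein FLIP, had 35.3 and 40.2 RPKM, a log2 difference of 0.18. TRADD, the adaptor of TNF receptor 1, had 17.3 and 16.6 RPKM. The ratio of FADD to TRADD was 1.30 and 1.58, and RIPK1 was the 1 adaptor past 1.25-fold. It was short of that size with equal sums over all loci, at 0.23, and with a pseudocount of 5, at 0.24.

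CFLAR, CASP10 and CASP8 lie side by side on the plus strand of chromosome 2, between 201116104 and 201287711 (GRCh38). Their log2 differences were 0.18, 0.08 and 0.32. CFLAR was more abundant than CASP8 in both libraries, with CASP8 at 0.532 of the CFLAR level in wild type cells and 0.590 of it after knockdown.

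These sizes were also set beside those of genes at a like level. Of the 16 genes with a mean of 5 to 20 RPKM, 4 were at least 1.25-fold higher and 1 was lower, beside 7.51% and 9.94% of 5022 genes at that level. For 10 genes between 20 and 100 RPKM the counts were 2 and 0, beside 6.53% and 6.45% of 3459 genes. The central 95% of log2 differences at 5 to 20 RPKM ran from -0.59 to 0.48, a range that holds APAF1, CASP6, RIPK1 and ENDOG but not BCL2A1. At 20 to 100 RPKM it ran from -0.49 to 0.47 and held both CYCS and CASP8.

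**Figure D3:**
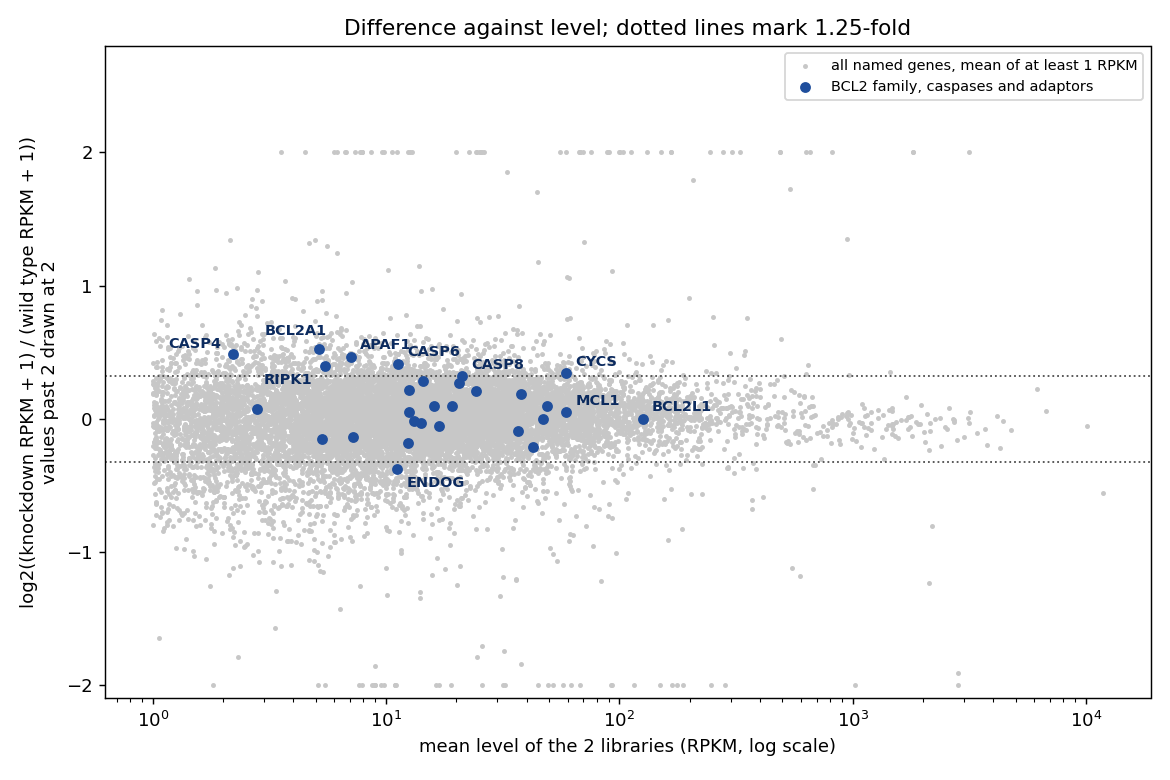
Log2 difference of knockdown over wild type (with 1 RPKM added) against the mean RPKM of the 2 libraries on a log axis, for 12158 genes in grey and 29 BCL2 family, caspase and adaptor genes in blue. Dotted lines mark 1.25-fold, values past 2 in either direction are drawn at that edge, and 7 blue points lie above the upper line and 1, ENDOG, below the lower.

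Exons of 10 of the 33 genes overlap those of another protein-coding gene in the annotation, among them APAF1, CASP6 and ENDOG. CASP6 shares up to 105 bases with MCUB (listed as CCDC109B), which had 13.5 and 13.9 RPKM. Among the 20 measured genes with no such overlap, 5 were at least 1.25-fold higher (BCL2A1, CASP8, CASP4, CYCS and RIPK1), 0 were that much lower, and the median log2 difference was 0.14.

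Because myocardin acts through serum response factor, the 250 bases before each annotated start were searched for the CArG box to which that factor binds, with either strand read. Promoter sequences came from RefSeq (GRCh38.p14), which held entries for 28 of the 33 genes. These 28 had 55 entries, and all 27305 genes had 35116, so the 28 had more windows per gene in which a word could occur. The shares per gene given here and below are therefore not like for like. A CArG box occurred before 2 of the 28, BCL2 and BCL2L12, against 1.44% of all 27305 genes with an entry. Both windows lie in annotated exons of the gene itself, and they are shown 5′ to 3′ on the gene's strand, with the box in capitals. BCL2 lies on the minus strand (chr18:63319806-63319835) and BCL2L12 on the plus strand (chr19:49665850-49665879).
BCL2: tagcagtcatCCTTTTTAGGaaaagaggga
BCL2L12: gcccctatgcCCTTTTTTGGgtttccggcc
The BCL2 message was near the floor in both libraries and that of BCL2L12 was lower by less than 1.25-fold. None of the 8 genes past 1.25-fold had this box in the windows searched, and a match or its absence says nothing about binding.

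Sites for AP-1 and NF-kB were searched in the same windows because both factors are known to act on survival and adaptor genes. The AP-1 word TGANTCA, which reads the same on both strands, occurred before CASP8, CFLAR and BCL2L13, 3 of the 28 genes, against 8.06% of all genes. The NF-kB consensus, read on both strands, occurred before BMF, CASP2, BIRC6 and CFLAR, 4 of the 28, against 11.8% of all genes. CFLAR, a known NF-kB target, matched both, before different starts. Its AP-1 match, TGAATCA, has A in the middle and counts because the word allows any base there. The words of CASP8 and BCL2L13, with C and G in the middle, are the same site read on opposite strands. These windows are on the plus strand, with the matched bases in capitals: the AP-1 words of CASP8 (chr2:201260465-201260491), CFLAR (chr2:201132611-201132637) and BCL2L13 (chr22:17706707-17706733), and the NF-kB match of CFLAR (chr2:201118609-201118638).
CASP8 AP-1: ctagtgtttgTGACTCAggagtttcga
CFLAR AP-1: atatggtcctTGAATCAacatcacctg
BCL2L13 AP-1: tgattctcccTGAGTCAtccttgctcc
CFLAR NF-kB: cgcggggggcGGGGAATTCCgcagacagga
The searched windows that hold these AP-1 words lie before starts inside the annotated genes, not before their first bases. They overlap annotated exons of the gene by 36 bases for CASP8, 2 for CFLAR and 71 for BCL2L13. The CFLAR window with the NF-kB match also lies inside the gene, with 225 bases in its exons. Use of these starts in the cells was not tested. CASP8, CFLAR and BCL2L13 had log2 differences of 0.32, 0.18 and 0.28. Of the genes with the NF-kB consensus, CASP2 had 0.22 and BIRC6 0.10, and BMF was under the level compared. BCL2A1 had no NF-kB match in the window searched. The GC box (GGGCGG, both strands), to which SP1 binds, occurred before 22 of the 28 genes and 46.2% of all genes with an entry, and an E2F consensus before 0 of the 28 and 3.4% of all genes.

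Of the 8 genes past 1.25-fold, RIPK1 alone had an upstream window with the TATA word TATAAA and no annotated exon of the gene, and this window is shown whole. The word, searched on the gene's strand alone, occurs before 4 of the 28 genes and 8.38% of all genes. Here it begins 30 bases before the start. The window is chr6:3063717-3063966 on the plus strand, with the word in capitals.
RIPK1: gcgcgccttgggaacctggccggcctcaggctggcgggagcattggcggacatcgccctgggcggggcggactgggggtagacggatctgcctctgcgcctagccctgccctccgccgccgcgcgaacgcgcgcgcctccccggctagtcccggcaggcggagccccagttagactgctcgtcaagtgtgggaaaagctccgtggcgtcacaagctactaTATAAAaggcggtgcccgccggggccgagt
TATAAA also occurred before BCL2A1 and CASP8, in windows that overlap annotated exons of those genes, and before BCL2L1, whose level was equal in both libraries.

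The word AATATGC, which earlier work on these libraries found often in 3′ untranslated regions of lower genes, was looked for in the longest annotated region of each of the 33 genes. It occurred in 2 of the 33, once in XIAP and at 3 places in BCL2. Its share among all genes was not counted, so these matches have no background beside them. A long region also offers more places for a match than a short one. XIAP had the word at base 710 of a region of 6798 bases, and the first place in BCL2 was base 24 of 5279. Both are shown with the word in capitals, from GENCODE transcripts.
XIAP: tgtatgtttttAATATGCatagaacaaaa
BCL2: tgccccaaacaAATATGCaaaaggttcac
XIAP was lower, by less than 1.25-fold, and BCL2 was too low to compare. Because the word came from lower genes of these same libraries, its match in XIAP, a lower gene, is no separate evidence. A link between the word and the level was not tested. ENDOG, with the lowest log2 difference of the 29 measured genes, did not hold the word in its annotated region of 67 bases.

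Other genes of the death pathways were taken from a list of 48 genes. Of these, 34 were listed under their own or an older name, each above the limit of 1 RPKM. Of these, 5 were at least 1.25-fold higher (14.7%) and 1 lower (2.94%), beside 7.99% and 10.6% of all genes. Their median log2 difference was 0.03, and 0 passed 1.5-fold in either direction. The 5 higher genes were 4 receptors and MLKL, the pore-forming protein of necroptosis, which had 13.8 and 17.8 RPKM. For this list the counts at 1.25-fold were not recomputed under the alternative settings. With equal sums over all loci the all-gene median moved to -0.17, so fewer of the 5 could pass 1.25-fold there.

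FAS, the receptor of FAS ligand, had 7.37 and 11.1 RPKM and the highest log2 difference of the list, 0.53. TNFRSF10A and TNFRSF10B, the TRAIL receptors that signal death, had 14.0 and 20.3 RPKM and 60.4 and 77.9 RPKM. TNFRSF10D, a TRAIL receptor with a truncated death domain, had 9.15 and 13.2 RPKM. TNFRSF10C, a decoy TRAIL receptor with no death domain, was lower, with 3.12 and 2.37 RPKM. This was a plain ratio of 0.760, but less than 1.25-fold on the log2(RPKM + 1) scale. TNFRSF1A, the TNF receptor that uses TRADD and RIPK1, had 190 and 188 RPKM. The ligand genes FASLG, TNF and TNFSF10 were absent from the values used here.

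The lowest log2 differences of the list were those of BNIP3L, a mitochondrial receptor for autophagy known to be induced by hypoxia, with 38.7 and 29.7 RPKM, and BBC3, the BH3-only protein PUMA, with 21.4 and 17.3 RPKM. PMAIP1, the BH3-only protein NOXA, had 12.8 and 14.3 RPKM.

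**Figure D4:**
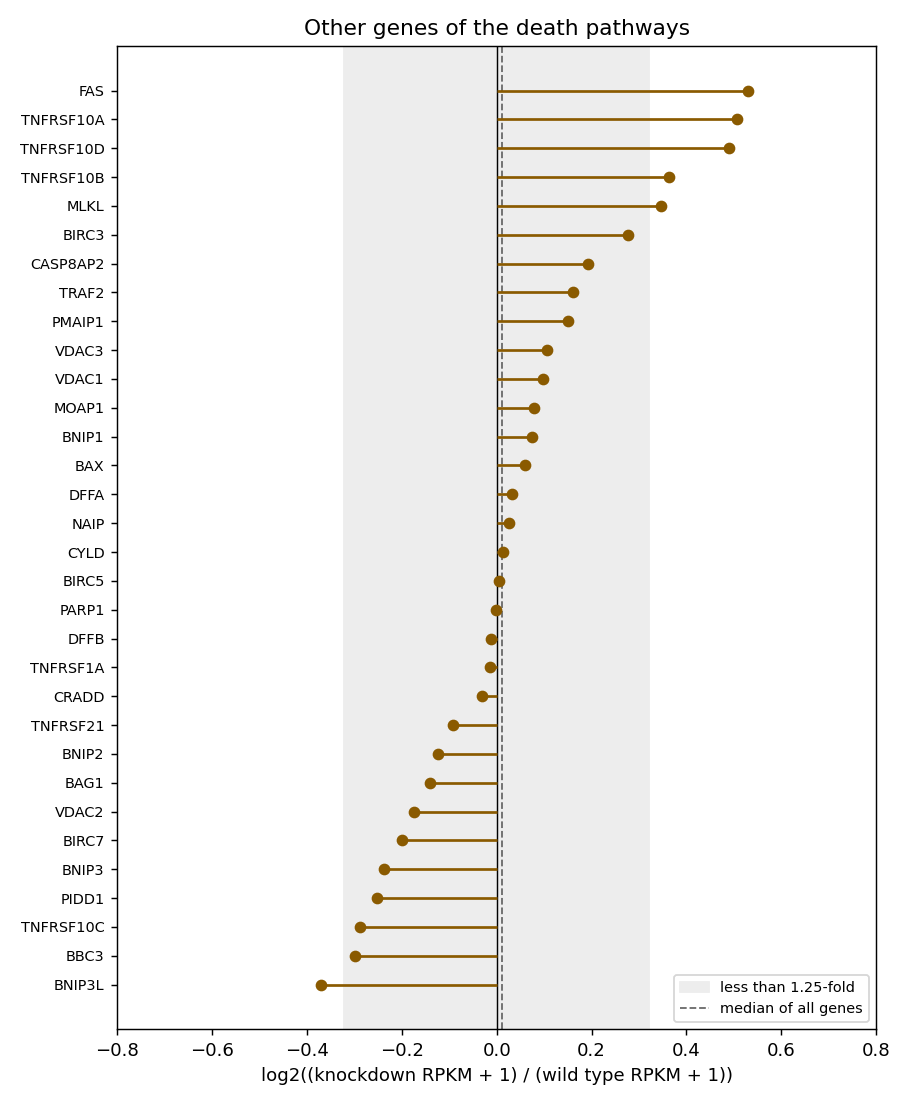
Log2 difference of knockdown over wild type (with 1 RPKM added) for 32 of the 34 other genes of the death pathways, ordered by size. FAS, TNFRSF10A, TNFRSF10D, TNFRSF10B and MLKL lie right of the grey band of less than 1.25-fold, and BNIP3L lies left of it.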

How the data were processed

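The authors deposited RPKM values per locus for 1 wild type and 1 MYOCD knockdown library of A549 cells. TopHat2 2.0.10 and Cufflinks 2.2.1 are named per the submitters' processing notes, with no role, as are the builds GRCh38.p12 and BDGP5; the annotation and the strand setting are unknown here. Values of names on several lines were summed and unnamed loci dropped. Differences are log2((knockdown + 1) / (wild type + 1)), which understates changes of low genes, with genes under a mean of 1 RPKM left out. With 1 library per group, sizes of 1.5-fold and 2-fold were counted with no test. The counting of genes past a fold was tested on simulated data with planted changes much larger than 1.25-fold. That test does not bear on differences of the size reported here. All 33 genes were to be named, and of the 48 further genes the 3 highest, the 3 lowest and any past 1.5-fold; others named were chosen after their values were seen. Some genes of that list are counted but not reported here by name. Genes, lists and the search words were chosen with earlier results of these data known. Alternatives covered the pseudocount, the filter, scaling and the handling of loci. Positions and overlaps came from GENCODE release 29, and older symbols from RefSeq. Python 3.11.15, numpy 2.4.6, pandas 2.3.3 and matplotlib 3.10.9 were used.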

Additional observations from a re-analysis of the deposited data

How the results depend on the processing

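Results were recomputed under 9 alternatives, and without overlapping genes. None of the measured genes passed 1.5-fold or 2-fold in any of them, except 2 higher genes (BCL2A1 and CASP4) at 1.5-fold with a pseudocount of 0.1. The median log2 difference of the measured genes was 0.0992 with a pseudocount of 0.1, 0.077 with 5, 0.085 with equal sums over named genes, 0.0715 with the median ratio of genes and 0.14 without genes that overlap others. With equal sums over all loci it was -0.0923, and the signs of 9 genes flipped; the count at 1.25-fold was then 2 higher and 3 lower. With a pseudocount of 5 these counts were 1 and 0, without any filter the lower count was 2 (BMF and ENDOG), and without overlapping genes it was 0. Above 0 in all settings were 11 genes, including the 7 past 1.25-fold, and below 0 in all were 9. The size of 1.25-fold and the leaving out of overlapping genes were chosen after seeing the data. No paired analysis was possible because each group had 1 library. Depth is unknown, so counting error could not be set.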
